A study of Homo sapiens with 6 samples.

Results

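Azurophil granules are the primary granules of neutrophils and their precursors, and they hold serine proteases that digest microbes and matrix proteins. The genes of these proteases are transcribed mainly at the promyelocyte stage, the stage that HL-60, a line from a human acute myeloid leukaemia, is thought to resemble. SUMO-2 and SUMO-3 are small ubiquitin-related proteins that are attached to other proteins, among them many transcription factors and co-regulators, and SUMO-2/3 chromatin immunoprecipitation followed by sequencing (ChIP-seq) maps where such conjugates lie on DNA. The 6 genes examined here were listed by name. They were ELANE (neutrophil elastase), PRTN3 (proteinase 3), AZU1 (azurocidin, an antimicrobial relative without protease activity), CFD (complement factor D, the protease that cleaves factor B), CTSG (cathepsin G) and GZMB (granzyme B). GZMB is better known as a protease of cytotoxic lymphocytes and CFD as a serum protease, so the name azurophil granule gene fits them less well than the other members. They are 6 of the 19785 protein-coding genes in the annotation used.

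HL-60 cells received for 2 h either water (mock), the nucleoside analogue cytosine arabinoside (Ara-C) at 2 µM or the anthracycline daunorubicin (DNR) at 1 µM. Immunoprecipitates of 3 biological replicates were pooled before sequencing, so each condition has 1 library and 1 list of peaks, and no difference between conditions could be tested. Mock gave 44265 peaks, Ara-C 72279 and DNR 33355. They give positions only, so the depth of the libraries is unknown, width is the only measure of a peak, and unequal depth cannot be told apart from an effect of treatment. No expression was measured in these samples, and the myeloid identity of the cells was not checked here. The study measured expression in HL-60 cells under these drugs in separate experiments, which were not used here.

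Positions are given 1-based in hg19, and genes are those of GENCODE 44 lifted to GRCh37. On chromosome 19, all on the plus strand, lay AZU1 from 825097 to 832018, PRTN3 from 840999 to 848175, ELANE from 851014 to 856247 and CFD from 859453 to 867884. The gaps between them measured 8980, 2838 and 3205 bp. On chromosome 14, both on the minus strand, lay CTSG from 25042724 to 25045456 and GZMB from 25100160 to 25103473, with 54703 bp between them. A peak was assigned to a gene when it came within 20 kb of the gene body. The windows of the 4 chromosome 19 genes ran together into 1 stretch of 82.8 kb, so most peaks there belong to more than 1 gene. The windows of CTSG and GZMB were separate, at 42.7 and 43.3 kb. In these 3 stretches lay 7 mock, 14 Ara-C and 12 DNR peaks.

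The transcription start site (TSS) of AZU1 and of CTSG carried a peak in mock and under Ara-C, and neither TSS was covered under DNR. Of 19504 canonical TSSs, 5.53% (mock), 6.81% (Ara-C) and 0.359% (DNR) were covered, so a TSS without a DNR peak was the rule for coding genes. The sequences below are from some of the peaks near a gene start, centred up to 3886 bp from the canonical TSS. They are shown because the comparison of the lists turns on them. The Ara-C peak over the outermost annotated start of AZU1 is not printed and held none of the motifs marked below. They are from the GRCh37 assembly, read 5′ to 3′ on the strand of the gene. Capitals mark matches to GAGGAA (the core bound by PU.1 and other ETS factors), TGTGGT (RUNX factors) or TTGCNNAA (C/EBP factors), searched on both strands. These factors are known regulators of granule protease genes.
AZU1 start, Ara-C peak of 150 bp, chr19:827701-827850, plus strand: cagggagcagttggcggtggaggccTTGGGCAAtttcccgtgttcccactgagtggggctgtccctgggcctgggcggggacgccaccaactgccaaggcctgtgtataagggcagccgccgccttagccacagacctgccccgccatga
AZU1 upstream, Ara-C peak of 300 bp, chr19:823801-824100, plus strand: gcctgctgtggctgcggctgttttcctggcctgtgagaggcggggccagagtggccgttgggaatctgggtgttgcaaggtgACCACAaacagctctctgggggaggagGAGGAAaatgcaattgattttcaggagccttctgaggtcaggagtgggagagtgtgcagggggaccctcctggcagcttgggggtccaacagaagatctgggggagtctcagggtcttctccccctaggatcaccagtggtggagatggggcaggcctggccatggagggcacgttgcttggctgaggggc
CTSG start, mock peak of 200 bp, chr14:25045451-25045650, minus strand: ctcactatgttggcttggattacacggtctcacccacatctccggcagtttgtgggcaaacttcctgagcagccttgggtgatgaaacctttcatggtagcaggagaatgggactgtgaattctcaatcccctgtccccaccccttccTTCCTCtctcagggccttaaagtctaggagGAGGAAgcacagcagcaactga
CTSG upstream, DNR peak of 150 bp, chr14:25045651-25045800, minus strand: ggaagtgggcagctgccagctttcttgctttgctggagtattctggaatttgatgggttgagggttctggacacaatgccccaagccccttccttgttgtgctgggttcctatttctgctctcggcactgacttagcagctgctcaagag
CTSG upstream, Ara-C peak of 200 bp, chr14:25045751-25045950, minus strand: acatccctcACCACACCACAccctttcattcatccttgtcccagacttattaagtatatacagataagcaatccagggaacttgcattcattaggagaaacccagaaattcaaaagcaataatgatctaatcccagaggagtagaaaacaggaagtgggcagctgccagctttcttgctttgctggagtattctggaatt
ELANE upstream, first DNR peak of 200 bp, chr19:850001-850200, plus strand: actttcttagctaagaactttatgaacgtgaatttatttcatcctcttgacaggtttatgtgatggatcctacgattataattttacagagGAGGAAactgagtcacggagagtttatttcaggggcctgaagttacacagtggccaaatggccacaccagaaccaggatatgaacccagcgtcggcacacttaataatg
ELANE upstream, second DNR peak of 200 bp, chr19:850351-850550, plus strand: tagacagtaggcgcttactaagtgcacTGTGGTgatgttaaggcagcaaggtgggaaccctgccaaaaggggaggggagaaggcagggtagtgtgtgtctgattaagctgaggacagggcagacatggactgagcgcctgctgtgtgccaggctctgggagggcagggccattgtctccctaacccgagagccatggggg
CFD intron, mock peak of 150 bp, chr19:859801-859950, plus strand: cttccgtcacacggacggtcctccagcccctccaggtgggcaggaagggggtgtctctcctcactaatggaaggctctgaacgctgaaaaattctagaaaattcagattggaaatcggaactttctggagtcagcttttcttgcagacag

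Both AZU1 sequences lie inside wider mock peaks. The peak at the AZU1 start held 1 C/EBP match, its first base at -111 from the TSS. The CTSG start held a pair of PU.1 matches, with first bases at -46 and -16 from the TSS, and both lay in the mock peak and in the Ara-C peak. The DNR peak beside them held no match to the 3 motifs. The Ara-C peak that overlapped it by 50 bp held 2 RUNX matches, at -485 and -480, that share 1 base.

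ELANE encodes the elastase that is mutated in many cases of congenital neutropenia, and it had a peak near its start under DNR and in neither other list. The outermost annotated start is at 851014 and that of the canonical transcript at 852303. In mock, no peak touched the gene, and the nearest one was centred 7572 bp downstream of the canonical TSS, in CFD. Under Ara-C, the nearest was 11772 bp downstream, beyond the canonical CFD transcript. Under DNR, 2 peaks of 200 bp lay just before the gene, from 850001 to 850200 and from 850351 to 850550, centred 914 and 564 bp upstream of its 5′ end. Measured from the canonical TSS they lay 2202 and 1852 bp upstream. The closest peak of another list was a mock peak 9251 bp from the second. The first held a PU.1 match and the second a RUNX match. Within 20 kb of ELANE lay 2 mock peaks (exact Poisson interval 0.242 to 7.22), 2 Ara-C peaks and 6 DNR peaks (2.2 to 13.1), so these intervals overlap.

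PRTN3, the neighbour of ELANE and a target of autoantibodies in vasculitis, had no peak touching it in any list. It had 4 mock, 4 Ara-C and 5 DNR peaks within 20 kb, but the nearest were distant from its start at 840999. In mock, a 150 bp peak from 836551 to 836700 lay 4374 bp upstream, between AZU1 and PRTN3, and the nearest Ara-C and DNR peaks were 8701 and 7201 bp from it. Under Ara-C the nearest peak was the one at the AZU1 start, 13224 bp upstream. Under DNR it was the first of the peaks before ELANE, 9102 bp downstream of the PRTN3 TSS. All peaks counted for PRTN3 thus also lay within 20 kb of another member.

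AZU1 was the only member of the cluster with a peak on its canonical TSS, at 827837. The mock peak there was 400 bp wide, from 827601 to 828000, and reached into a coding exon. The Ara-C peak was 150 bp wide, from 827701 to 827850, and lay wholly inside it. The nearest DNR peak, of 150 bp from 829201 to 829350, lay in an intron 1438 bp downstream and 1201 bp from the mock peak. A second site lay upstream in intergenic sequence, where a 450 bp mock peak from 823701 to 824150 enclosed the 300 bp Ara-C peak printed above, centred 3912 and 3886 bp before the canonical TSS. The nearest DNR peak to it was 5051 bp away. Both mock peaks were wide for their list, as 3.82% of the mock peaks of chromosome 19 were at least as wide as the upstream one and 6.84% at least as wide as the one at the start. The Ara-C peak at the start had the smallest width in its list. Ara-C gave a further peak, 150 bp wide from 825001 to 825150, over the outermost annotated start of AZU1 at 825097, and the nearest mock peak was 851 bp away.

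The flank of AZU1 away from PRTN3 held another overlapping pair. A 350 bp mock peak from 812051 to 812400 and a 150 bp Ara-C peak from 812351 to 812500 shared 50 bp at the facing 3′ ends of PTBP1, a splicing regulator, and PLPPR3. Another mock peak of 150 bp, from 811001 to 811150, lay in the untranslated last part of PTBP1. The DNR list had a 150 bp peak from 814751 to 814900 in a coding exon of PLPPR3, 2351 bp from the nearest mock peak. In all, 5 mock, 4 Ara-C and 4 DNR peaks came within 20 kb of AZU1.

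**Figure D1:**
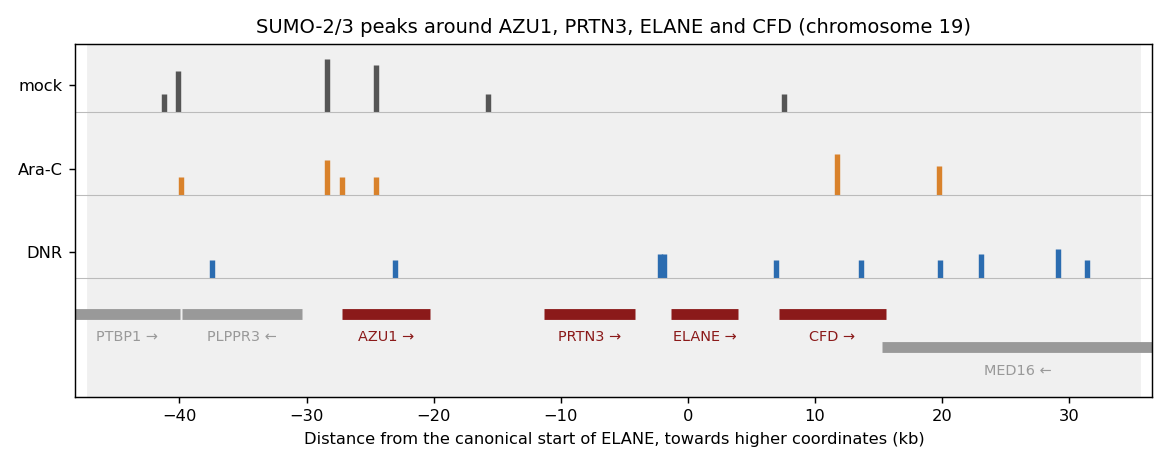
Peaks of each list around the 4 genes of chromosome 19, by distance in kb from the canonical start of ELANE. Bar height is peak width (the tallest is 450 bp), shading is the 20 kb window, dark red bars are the members and grey bars their coding neighbours, with arrows for the strand. The mock and Ara-C bars coincide at AZU1, while 8 of the 10 DNR bars stand between the upstream side of ELANE and MED16.

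CFD, which starts the amplification loop of the alternative complement pathway, had the widest range of peak numbers among the 6 genes. Mock gave 1 peak within 20 kb of it (exact Poisson interval 0.0253 to 5.57), a 150 bp intronic peak from 859801 to 859950, centred 212 bp downstream of the canonical TSS at 859664. Ara-C gave 2 peaks, one of 350 bp from 863901 to 864250, past the end of the canonical transcript, and one of 250 bp from 871951 to 872200 in a coding exon of MED16, a subunit of the Mediator complex. DNR gave 8 peaks (3.45 to 15.8), and the mock and DNR intervals overlap. Among them were the pair before ELANE, a 150 bp peak from 865901 to 866050 in the extended CFD gene body, and 4 peaks inside MED16. Of those 4, the one from 872051 to 872200 lay wholly within the Ara-C peak of MED16, and the other 3 were 3051, 9101 and 11451 bp from the nearest peak of another list. The annotated CFD body is long because of a minor transcript. With the canonical transcript alone, CFD had 1 mock, 2 Ara-C and 7 DNR peaks within 20 kb.

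CTSG, a chymotrypsin-like protease, was the only member with peaks at its start in all 3 lists. Its TSS is at 25045456. The mock peak of 200 bp, from 25045451 to 25045650, covered the TSS and was the only mock peak within 20 kb. The Ara-C peak of 150 bp, from 25045451 to 25045600, began at the same base and lay inside the mock peak. The DNR peak of 150 bp, from 25045651 to 25045800, began on the base after the mock peak ended, so they abut without sharing a base. It was centred 270 bp upstream of the TSS, against 94 bp in mock and 70 bp under Ara-C. A second Ara-C peak from 25045751 to 25045950, centred 394 bp upstream, overlapped it. These 4 peaks formed 1 region of 500 bp, which was the only 1 of 26 regions in the windows to hold peaks of every list. Peak edges lie on a grid of 50 bp, so these centres differ by few grid steps.

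Elsewhere around CTSG the lists differed. Ara-C had 5 peaks within 20 kb, with a 250 bp peak from 25043701 to 25043950 over a coding exon and peaks in intergenic sequence from 25028701 to 25028900 and from 25059751 to 25059900. DNR had a second peak of 150 bp, from 25024651 to 25024800, 17924 bp beyond the 3′ end of the gene.

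GZMB had 0 peaks within 20 kb in mock and under DNR. The nearest mock peak was centred 22854 bp upstream of the canonical TSS and the nearest DNR peak 39880 bp upstream. Ara-C gave 3 peaks (exact Poisson interval 0.619 to 8.77, against 0 to 3.69 for a count of 0). One of 150 bp, from 25102651 to 25102800, lay in an intron 670 bp downstream of the TSS, and the others lay from 25094801 to 25095000 and from 25114151 to 25114300. The nearest mock peak to any of them was 11851 bp away and the nearest DNR peak 28901 bp. Between the CTSG and GZMB windows lies GZMH, the gene of granzyme H, where 3 mock peaks of 150 bp, 2 Ara-C peaks and 0 DNR peaks were found. 2 of these mock peaks touched GZMH, and the other, from 25074701 to 25074850, lay inside a 300 bp Ara-C peak.

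**Figure D2:**
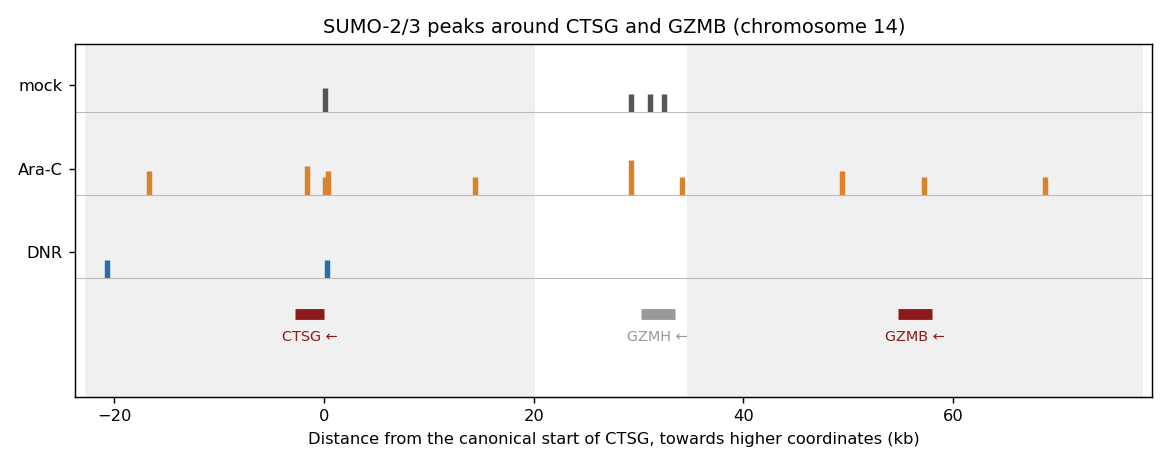
Peaks of each list around CTSG and GZMB, by distance in kb from the start of CTSG, with bar height as peak width on the same scale as in the chromosome 19 map (250 bp is the tallest bar in a window). White space between the shaded 20 kb windows holds GZMH and its 3 mock and 2 Ara-C peaks, and the GZMB window is empty in mock and under DNR.

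**Figure D3:**
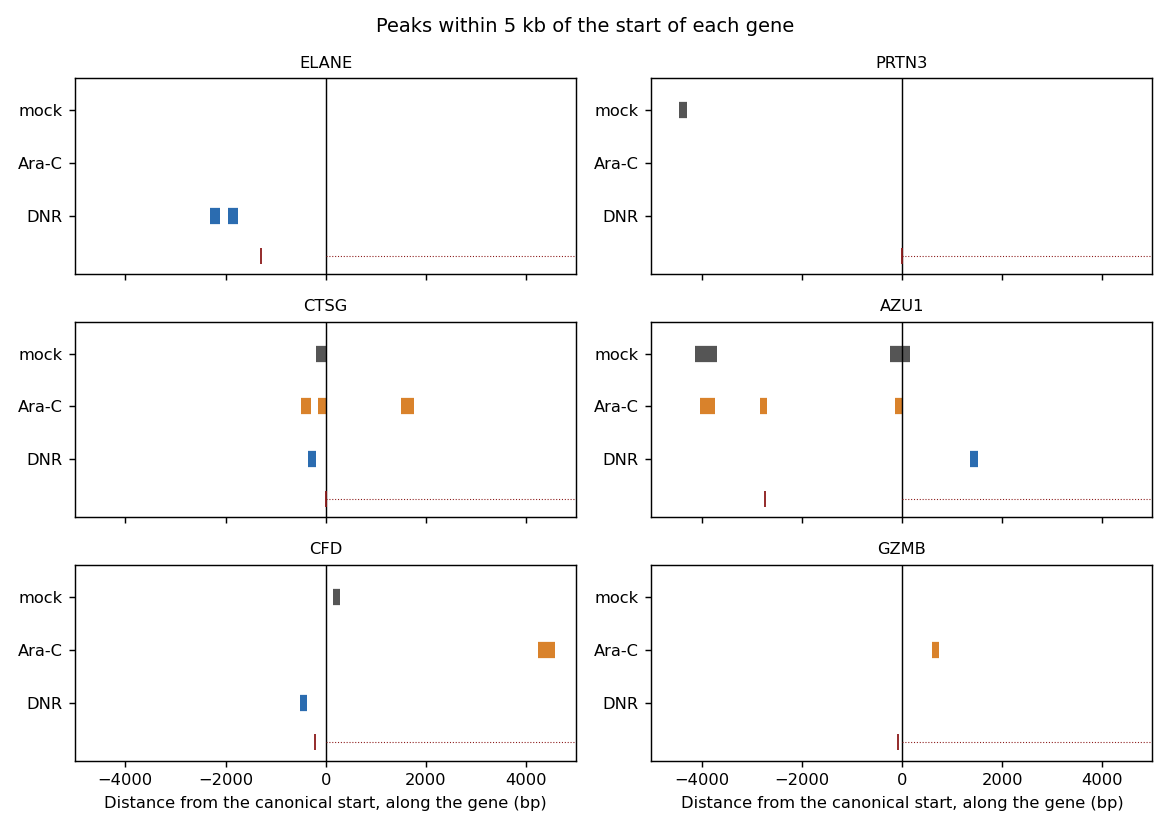
Peaks within 5 kb of the canonical start of each gene, drawn along the direction of transcription in bp, with a dark red tick at the 5′ end of the annotated gene. At AZU1 and CTSG the mock and Ara-C peaks touch the start, and the DNR peaks at ELANE and CTSG lie upstream of it.

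The numbers near the members were set against those of all coding genes. At least 1 peak within 20 kb was present at 5 of 6 members in mock, all 6 under Ara-C and 5 of 6 under DNR. Over the 19785 coding genes the shares were 73%, 82.5% and 58.4%. Over the 1433 coding genes of chromosome 19 they were 74.3%, 82.6% and 59.9%, and over the 602 of chromosome 14 they were 75.1%, 85.2% and 58.3%. The presence of a peak was thus common at any gene. The members lay above these shares in each list, most so under DNR. These counts rest on 6 genes, 4 of which share peaks, and the difference was not tested. A peak in the 2 kb before a TSS of any basic coding transcript was present at 2 members in mock (AZU1 and CTSG), at the same 2 under Ara-C and at 3 under DNR (ELANE, CFD and CTSG). The shares over all coding genes were 20.6%, 25.4% and 6.01%. A peak on the canonical TSS was present at AZU1 and CTSG in mock and under Ara-C and at 0 members under DNR. The shares over all such TSSs are those given above.

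By number, the chromosome 19 genes ranked higher under DNR than in the other lists. The median coding gene of chromosome 19 had 1 mock, 2 Ara-C and 1 DNR peak within 20 kb. As many DNR peaks as the 8 counted for the annotated CFD body, or more, were near 0.209% of the 1433 genes. With the canonical transcript alone CFD had 7, and 4 of the 8 lay inside MED16. The shares were 1.47% for the 6 of ELANE, 2.65% for the 5 of PRTN3 and 5.79% for the 4 of AZU1. In mock, as many peaks as AZU1 were near 7.61% of genes, as PRTN3 near 13.2%, as ELANE near 49.3% and as CFD near 74.3%. Under Ara-C the shares were 26.2% for AZU1 and PRTN3 and 60.9% for ELANE and CFD. On chromosome 14, as many peaks as CTSG were near 75.1% of the 602 genes (mock), 31.9% (Ara-C) and 31.7% (DNR). These ranks describe single libraries. Longer genes have wider windows, and neighbouring genes share peaks.

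**Figure D4:**
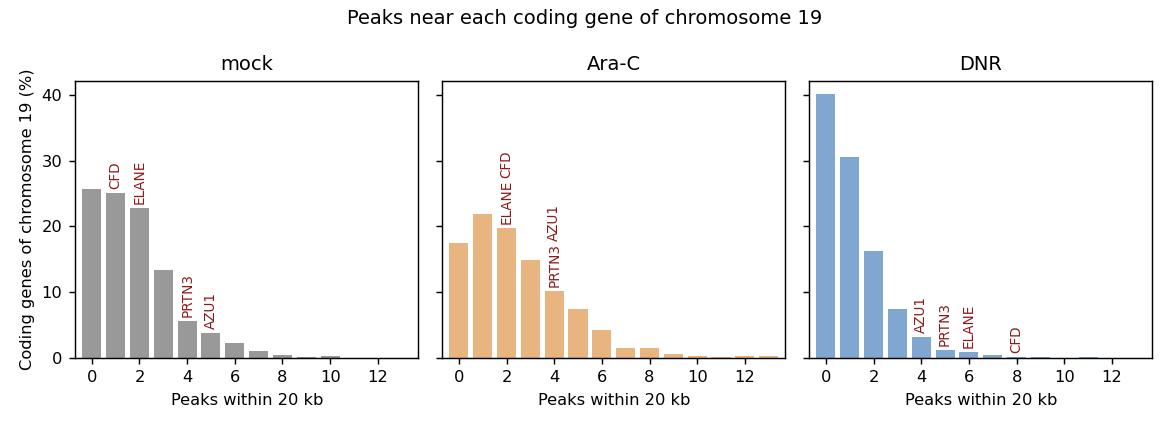
Share of the 1433 coding genes of chromosome 19, in percent, by the number of peaks within 20 kb, for each list. Members are written above the bar of their own count, and under DNR all 4 stand at 4 to 8 peaks, right of most genes.

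Per length, the 82.8 kb around the chromosome 19 genes held 6 mock peaks, or 72.5 per Mb, against 20.2 per Mb on the whole chromosome. That is 3.6 times the density of the chromosome, with an exact Poisson interval of 1.32 to 7.83 on the count. The interval took in 1 with windows of 10 kb (3.16, 0.861 to 8.09) and with peaks of at least 200 bp (2.99, 0.617 to 8.74). Ara-C gave 6 peaks as well, 2.49 times the density of 29.1 per Mb (0.915 to 5.42). DNR gave 10 peaks, or 121 per Mb, 8.51 times the density of 14.2 per Mb (4.08 to 15.7). The intervals cover counting error only. The chromosome density would have placed 1.67, 2.41 and 1.17 peaks in this stretch. Few of the DNR peaks touched a member gene. Over the windows of all 6 members, 2 of 12 DNR peaks did, against 3 of 7 mock and 6 of 14 Ara-C peaks.

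Against its surroundings the cluster had a smaller DNR fold. The cluster lies in the first Mb of the chromosome, and this Mb held 36 DNR peaks, against a median of 12 over 60 such bins, with 2 bins holding more. It held 19 mock and 23 Ara-C peaks, against medians of 19.5 and 27.5. Against the density of the surrounding stretch reaching up to 1 Mb to either side, which includes the cluster itself, the cluster had 2.87 times as many DNR peaks (1.38 to 5.27), 2.10 times as many mock peaks (0.772 to 4.58) and 1.95 times as many Ara-C peaks (0.715 to 4.24). The mock and Ara-C intervals include 1. With the peaks and length of the cluster left out of that background, a choice made after the data had been seen, the folds were 3.15 for DNR (1.51 to 5.79), 2.22 for mock (0.814 to 4.83) and 2.04 for Ara-C (0.749 to 4.44).

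On chromosome 14, the CTSG window held 1 mock, 5 Ara-C and 2 DNR peaks, where the chromosome density would have placed 0.646, 1.09 and 0.469. The folds were 1.55 (0.0392 to 8.63), 4.58 (1.49 to 10.7) and 4.26 (0.516 to 15.4). Against the surrounding stretch the Ara-C fold was 2.54 (0.826 to 5.93), or 2.63 (0.854 to 6.14) with the CTSG window left out of it. The GZMB window held 3 Ara-C peaks, 2.71 times the density of the chromosome (0.559 to 7.93), and its empty mock and DNR counts allow folds of up to 5.64 and 7.76. In these windows an excess over the chromosome was beyond counting error only for Ara-C at CTSG. That interval counts the Ara-C peak on the CTSG start and the one centred 394 bp upstream of the TSS as separate, though both lie in the same merged region.

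**Figure D5:**
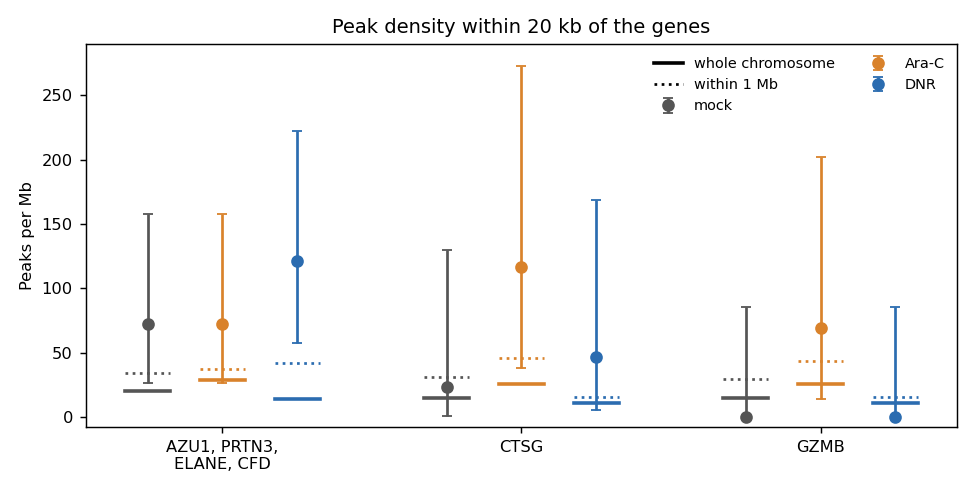
Peaks per Mb within 20 kb of the genes (points, with exact Poisson 95% intervals) beside the density of the whole chromosome (solid lines) and of the stretch reaching up to 1 Mb to either side, windows included (dotted lines), for mock, Ara-C and DNR. The DNR point of the chromosome 19 cluster, at 121 per Mb, is the only one of the plot whose interval lies above both lines.

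Near the members, 4 of 7 mock peaks shared at least 1 base with an Ara-C peak and none did with a DNR peak. The 4 of 7 (57.1%, Wilson interval 25 to 84.2) were at the AZU1 start, the AZU1 upstream site, the PTBP1 end and the CTSG start. Over chromosomes 14 and 19 together 21.8% of mock peaks did so. Where 50% of the mock peak had to be covered, 2 of the 7 did (28.6%). With DNR, 0 of the 7 overlapped (0 to 35.4%), against 4.92% over both chromosomes. Of the 14 Ara-C peaks, 4 overlapped a mock peak (28.6%, 11.7 to 54.6, against 13.8%) and 2 a DNR peak (14.3%, 4.01 to 39.9, against 3.74%). Of the 12 DNR peaks, 0 overlapped a mock peak (0 to 24.2%, against 6.93%) and 2 an Ara-C peak (16.7%, 4.70 to 44.8, against 8.23%). These 2 were at the CTSG start and in MED16. The intervals take in the values of the chromosomes, except those for mock peaks found under Ara-C and Ara-C peaks found under DNR, which lie above them. On chromosome 19 alone, 3 of 6 mock peaks overlapped an Ara-C peak (50%, 18.8 to 81.2), against 30.1% of the chromosome, and that interval takes it in. For Ara-C peaks found under DNR, 1 of 6 on chromosome 19 overlapped (3.01 to 56.4%, against 6.1%) and 1 of 8 on chromosome 14 (2.24 to 47.1%, against 2.04%), so that value rests on 1 peak at each locus. With peaks of at least 200 bp alone, the shares were 25% (1 of 4) for mock peaks found under Ara-C and 0 of 7 for Ara-C peaks found under DNR. That filter removes the 2 overlapping DNR peaks and the Ara-C peaks at the AZU1 start, CTSG start and PTBP1 end, all 150 bp wide. No share of the chromosomes was computed for such peaks, so these values cannot show whether either excess held.

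Merged over the lists, the windows held 26 regions, 21 of them (80.8%) with a peak of 1 list, against 90.8% of the 7320 regions of both chromosomes. DNR alone accounted for 10 (38.5%, against 21.3%), of which 9 were on chromosome 19. Another 8 were found under Ara-C alone (30.8%, against 44.3%), 6 of them on chromosome 14, and 3 in mock alone (11.5%, against 25.2%). Of the shared regions, 3 were of mock with Ara-C, all on chromosome 19, 1 was of Ara-C with DNR, and 1, the CTSG start, was of all lists.

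Widths around the chromosome 19 genes fell in the order mock, Ara-C, DNR. The 6 mock peaks had a median of 250 bp, with 3 of 300 bp or more. The 6 Ara-C peaks had a median of 200 bp, with 2 of 300 bp or more, and the 10 DNR peaks a median of 150 bp, with none of 300 bp or more and a widest of 250 bp. On the whole chromosome, 17.1% of mock, 14.3% of Ara-C and 9.85% of DNR peaks reached 300 bp. No peak in the chromosome 14 windows did, where widths ran from 150 to 250 bp. The covered length around the cluster was 1650 bp in mock, 1350 bp under Ara-C and 1750 bp under DNR, so it differed less between lists than the numbers did.

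Base composition followed the 2 loci. The chromosome 19 stretch had a GC content of 59.9%, against 48.4% for the chromosome, while the CTSG and GZMB windows, at 40.8% and 41%, were close to the 40.9% of chromosome 14. Median GC of the peaks near the chromosome 19 genes was 63.6% (mock), 65.6% (Ara-C) and 60.6% (DNR), next to list medians on that chromosome of 56.7%, 55.5% and 54.7%. The first DNR peak before ELANE stood apart, at 41.5%. In the region at the CTSG start, the mock peak had 52.5%, the Ara-C peaks 52.7% and 42%, and the DNR peak 52.7%. The part of GC content in the peak numbers was not tested.

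The core motif of CTCF, the loop-organising factor that the study examined, was found in 0 of the 7 mock, 14 Ara-C and 12 DNR peaks. Peaks of the same widths in the whole lists would have given 0.263, 0.282 and 0.0571. GAGGAA was in 3 mock, 4 Ara-C and 4 DNR peaks, where width classes of the whole lists gave 1.91, 2.80 and 1.86. TGTGGT was in 1, 2 and 3 peaks, against 1.35, 2.03 and 1.5. TTGCNNAA was in the mock and Ara-C peaks at the AZU1 start only, against 1.09, 1.62 and 1.05, and 25.6% of all mock peaks of 400 bp or more held it. AACNG, a short form of the MYB site, was in 5, 8 and 6 peaks, against 5.17, 9.45 and 7.32, and was left unmarked above because 57.3% or more of the peaks of every width and list held it. Of all 19503 promoters read from 250 bp before to 50 bp after the canonical start, 27.2% held GAGGAA, 10.6% TGTGGT, 8.08% TTGCNNAA and 74.2% AACNG. In that window GAGGAA was present at ELANE, PRTN3, CTSG and GZMB, TTGCNNAA at PRTN3 and AZU1, and TGTGGT at GZMB. CFD held none of these motifs there. The matches are descriptions of sequence and not binding sites.

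A list of 26 genes around the same biology was described in the same way. It held other granule contents, genes for activation and packaging of the proteases, their inhibitors, and other granzymes with mast cell chymase. At least 1 peak within 20 kb was present in mock at 19 of 26 (73.1%), with Ara-C at 20 (76.9%) and with DNR at 16 (61.5%), next to 73%, 82.5% and 58.4% of all coding genes. The canonical TSS was covered in mock at 5 of the 26 genes, by Ara-C peaks at 3 and by DNR peaks at 0, where 5.53%, 6.81% and 0.359% of all coding genes had such a peak.

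Of the 8 granule contents, MPO (myeloperoxidase) had 14 mock, 12 Ara-C and 2 DNR peaks within 20 kb and a peak on its TSS in mock and under Ara-C. BPI, a protein that binds and kills Gram-negative bacteria, had 4, 15 and 2, with the TSS covered in the same lists. GUSB, a lysosomal glucuronidase, had 1, 1 and 0, the mock and Ara-C peaks covering the TSS at 200 bp each. CD63, a granule membrane protein, had 3, 0 and 3. The other 4 had no peak touching the gene or within 2 kb of its 5′ end.

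CTSC, the peptidase that activates these proteases by removing a dipeptide, had 3 mock, 5 Ara-C and 0 DNR peaks within 20 kb, all touching the gene, and its TSS was covered in mock. SRGN, the proteoglycan that retains proteases in granules, had 5, 5 and 0. Among genes whose loss causes neutropenia, VPS45 had 7, 7 and 3, G6PC3 3, 2 and 1, HAX1 3, 0 and 2, and AP3B1 0, 0 and 2. G6PC3 had its TSS covered in mock.

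Among the inhibitors, SERPINB1 had 0, 2 and 3 peaks within 20 kb, SERPINB6 had 3, 5 and 0, and SERPINB9, an inhibitor of granzyme B, had 1, 1 and 0. SERPINA1, the main inhibitor of elastase in plasma, had 2, 2 and 0, with a 400 bp Ara-C peak within 2 kb of its 5′ end. SERPINA3, which inhibits cathepsin G, had 0, 1 and 3, and A2M had 6, 5 and 3. The remaining inhibitor had no peak touching it or within 2 kb of its 5′ end. Of the other granzymes, GZMH had 3, 4 and 0 and GZMM, also near the start of chromosome 19, had 0, 3 and 2. The other 3 had none touching the gene or within 2 kb of its 5′ end.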

How the data were processed

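SUMO-2/3 ChIP-seq of HL-60 cells was analysed from 3 deposited peak lists. The 3 inputs were not analysed here. Per the methods of the study and the labels, the authors aligned single-end reads to hg19 with CASAVA 1.8.2 and used Pasha to extend reads (210 bp in mock and Ara-C, 220 bp in DNR), limit pile-ups (5 in mock, 4 in the others), bin by 50 bp, scale and subtract the input. Peaks were runs above a signal of 32 with gaps up to 100 bp and a run over 100 bp. The same fixed threshold was used in every library, so depth or scaling moves the number of peaks. The deposited values are start and end positions. Starts lay 1 above a multiple of 50 and were read as 1-based, with an exclusive end. A strict BED reading would shift each peak by 1 bp.

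Genes, canonical transcripts and 20 kb windows came from GENCODE 44 lifted to GRCh37, the assembly underlying hg19. Counts over genes were checked against bedtools 2.31.1, with 0 differences, and the counting, overlap and motif steps were tested on simulated data. Density used sequenced bases. Intervals are 95% exact Poisson or Wilson intervals, and cover counting error only. With 1 library per condition, differences were not tested. The members and lists were chosen with earlier results of these data known. Named genes were all members, their coding neighbours within 20 kb, and those of the 26 listed genes with a peak touching the gene or within 2 kb of its 5′ end. Others are given as counts. The position and sequence of 1 DNR peak are not reported here. Python 3.11.15, numpy 2.4.6, pandas 2.3.3 and scipy 1.17.1 were used.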

Additional observations from a re-analysis of the deposited data

How the results depend on the processing

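No paired analysis was possible because only 1 pooled library stands for a treatment. With 11 settings in use, 81 recomputed values bear on the comparisons above. Counting error, or a factor of 1.5 for numbers of peaks, covered 61 of them, and 20 moved further. The TSS of the canonical transcript and the local background without the windows were chosen once the data were known. Windows, widths and overlap rules change the numbers by construction, as fewer or more peaks enter. The depth of the libraries is unknown, and windows with 0 to 10 peaks leave wide counting intervals, so a missing excess over the chromosome may lie below what such counts can show.

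With windows of 50 kb, the members had 17 mock, 22 Ara-C and 16 DNR peaks. With peaks of at least 200 bp they had 4 mock, 7 Ara-C and 4 DNR peaks, so the higher DNR than mock number held in neither total. These totals pool both loci. With 50 kb, the DNR fold over the chromosome was 6.42 (3.42 to 11) at the chromosome 19 cluster, against 2.78 (1.2 to 5.48) in mock. At CTSG and GZMB it was 1.7 (0.351 to 4.97), against 3.71 in mock. Against the surroundings up to 1 Mb, the DNR density at the chromosome 19 cluster was 2.87 times the background in place of 8.51, and 3.15 times with the windows left out of them. With peaks of at least 200 bp, the DNR density at CTSG and GZMB was 0 times that of the chromosome, the share of mock peaks found under Ara-C was 25% (1 of 4), and the shares of Ara-C peaks found under DNR and of DNR peaks found under Ara-C were both 0. The mock density at CTSG and GZMB together was 0.769 times that of the chromosome with 20 kb, and thus below it. It was 1.44 times with 10 kb, 1.69 times with peaks of at least 200 bp and 3.71 times (1.69 to 7.03) with 50 kb. With 50 kb the mock peaks at GZMH enter, and so do others, such as the one from 25126151 to 25126350 upstream of GZMB. Coding genes with a peak in the mock, Ara-C and DNR lists made up 65%, 75.4% and 49.7% with 10 kb, 83.6%, 90.7% and 73.4% with 50 kb, and 56.1%, 67.6% and 36.9% with peaks of at least 200 bp. Accepting a peak within 500 bp let 1 of the 7 mock peaks, at the CTSG start, count as found under DNR.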
